A study of Mus musculus with 12 samples.

Results

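The mammalian circadian clock and its direct output were read here from 10 genes in the livers of ob/ob mice, out of 56205 genes in the count table. The genes were taken from a list of clock genes and matched by Ensembl identifier. They fall into a positive arm (Arntl and Npas2, 2 genes) and a group that normally peaks at another phase (Per1, Per2, Per3, Nr1d1, Nr1d2, Ciart, Dbp and Tef, 8 genes). All 10 were found in the table, and 9 of them had enough counts to be tested between groups. Npas2 did not, with 2 to 10 counts per library.

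The study compared whole livers of 12 young adult ob/ob mice, which lack leptin, become obese and accumulate liver fat. Both groups carried the ob/ob genotype, which the study's methods place on a B6 background, and both ate standard chow. The OBOB_FLO group (FLO, n = 6 libraries) received nothing further, and the OBOB_Fibrotic group (fibrotic, n = 6 libraries) also received DL-ethionine, a toxic ethyl analogue of methionine. The labels put ethionine at 0.165% in the drinking water for 2 weeks in one field and at 0.15% by injection in another, and the study's methods give a shorter exposure. All mice were described as male. The sources used here give neither the hour at which livers were collected nor the time of the last meal, so a change in level and a change in phase cannot be told apart. No lean mice and no mice with ethionine on another genotype are among these libraries.

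In the clock, the protein of Arntl (BMAL1) pairs with CLOCK, or with its relative NPAS2, and drives transcription from E-box sequences. The PER and CRY proteins and CIART repress that pair. The nuclear receptors REV-ERB alpha and beta (Nr1d1 and Nr1d2) repress Arntl through ROR elements, where ROR receptors activate it. DBP and TEF are PAR bZIP factors that carry the rhythm to liver metabolism through D-box sequences, so that in a normal liver Arntl and Npas2 run nearly opposite to Dbp, Tef, Nr1d1 and Per3.

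The promoter sequences below show where these elements lie in members whose levels differed between the groups, with Per1 for contrast. RefSeq promoters (GRCm38.p6, 250 bases before to 50 bases after the start, 300 bases in all) were present for 9 of the 10 members. They were not present for Per2. Letters were searched on both strands. The E-box CACGTG occurred in 7.15% of 32851 promoters in the table, the D-box TTANGTAA in 2.32%, the ROR element as TAGGTCA in 2.61% and as TGGGTCA in 3.98%, and the cAMP response element TGACGTCA in 1.79%. The E-box and the cAMP response element read the same on both strands, whereas the D-box and the ROR elements as written do not. No match to one motif overlapped a match to another. Capitals mark the match in each sequence. The stretch of Ciart stops 23 bases short of the RefSeq start, because those bases lie in an annotated Ciart exon, while positions are counted from the start itself.
Ciart, bases before the start, minus strand, chr3:95882252-95882478: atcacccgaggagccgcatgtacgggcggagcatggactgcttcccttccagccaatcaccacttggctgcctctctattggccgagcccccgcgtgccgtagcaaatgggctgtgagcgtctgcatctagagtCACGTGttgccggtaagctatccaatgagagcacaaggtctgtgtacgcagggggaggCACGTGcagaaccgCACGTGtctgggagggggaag
Per3, bases before the start, minus strand, chr4:151044666-151044915: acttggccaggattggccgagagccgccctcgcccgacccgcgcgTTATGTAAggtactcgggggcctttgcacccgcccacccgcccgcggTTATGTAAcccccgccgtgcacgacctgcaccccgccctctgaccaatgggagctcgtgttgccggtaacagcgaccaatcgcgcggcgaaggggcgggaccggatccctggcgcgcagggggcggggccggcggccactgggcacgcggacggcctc
Per1, window around the E-box before its first start, plus strand, chr11:69098772-69098801: gcacccaagtcCACGTGcagggatgtgtgt
Tef, window around the E-box before its second start, plus strand, chr15:81811265-81811294: acctggcccagCACGTGtctacatcgtttg
Arntl, window around the ROR element after its second start, plus strand, chr7:113207530-113207559: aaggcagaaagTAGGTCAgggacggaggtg
The window of Ciart held 3 E-boxes, beginning 116, 58 and 44 bases before the start. That of Per3 held 2 D-boxes, beginning 205 and 158 bases before the start, and no E-box. Per1 held an E-box before its first start, Tef held an E-box before each start, and Arntl held a ROR element 31 bases past its second start. The stretch before the first start of Tef lies wholly in annotated Tef exons and is not printed. The windows of Dbp, Npas2, Nr1d1 and Nr1d2 held none of the 5 motifs searched. A match is only a match of letters, and these libraries carry no measurement of binding.

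Libraries held 17815568 to 24814263 counted reads, and levels are given as CPM, which scales counts to the TMM-normalized library size. Genes were called where edgeR's quasi-likelihood test gave an FDR (Benjamini-Hochberg adjusted p) no higher than 0.01 and the log2 fold change exceeded 0.5 in size. Of the 13416 genes tested, 29.9% were called, 15.9% higher and 14.0% lower in fibrotic livers, so calls were common. Fibrotic replicate 4 lay farthest out on the first principal component (67.6, against 30.9 to 48.3 in the other fibrotic libraries). FLO replicate 3 carried 3773 counts of Xist and 4 of Ddx3y, where the other 11 libraries carried 0 to 4 and 556 to 977, against the stated male sex. Several results that rested on either library are given with and without it, but not every correlation or count of signs is.

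Of the 9 members tested, 5 were called, against 29.9% of all tested genes. Arntl and Ciart were higher in fibrotic livers, and Per3, Dbp and Tef were lower. Per1, Per2, Nr1d1 and Nr1d2 were not called. The changes therefore did not divide by the expected phase, since Ciart, placed with Dbp and Per3, was called in the direction of Arntl. The groups did not overlap in 4 members, against 30.4% of all tested genes. These were Arntl, higher in fibrotic livers (15.3% of all tested genes), and Per3, Dbp and Tef, lower (15.1%). An exact permutation test on log2 CPM gave p of 0.05 or less in 5 of the 10 members, close to the 56.7% of all tested genes that did so. The count was 6 on plain library sizes without TMM, where Nr1d2 joined. The median log2 fold change of the 8 genes of the second group was -0.44, against 0.03 over all tested genes.

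**Figure D1:**
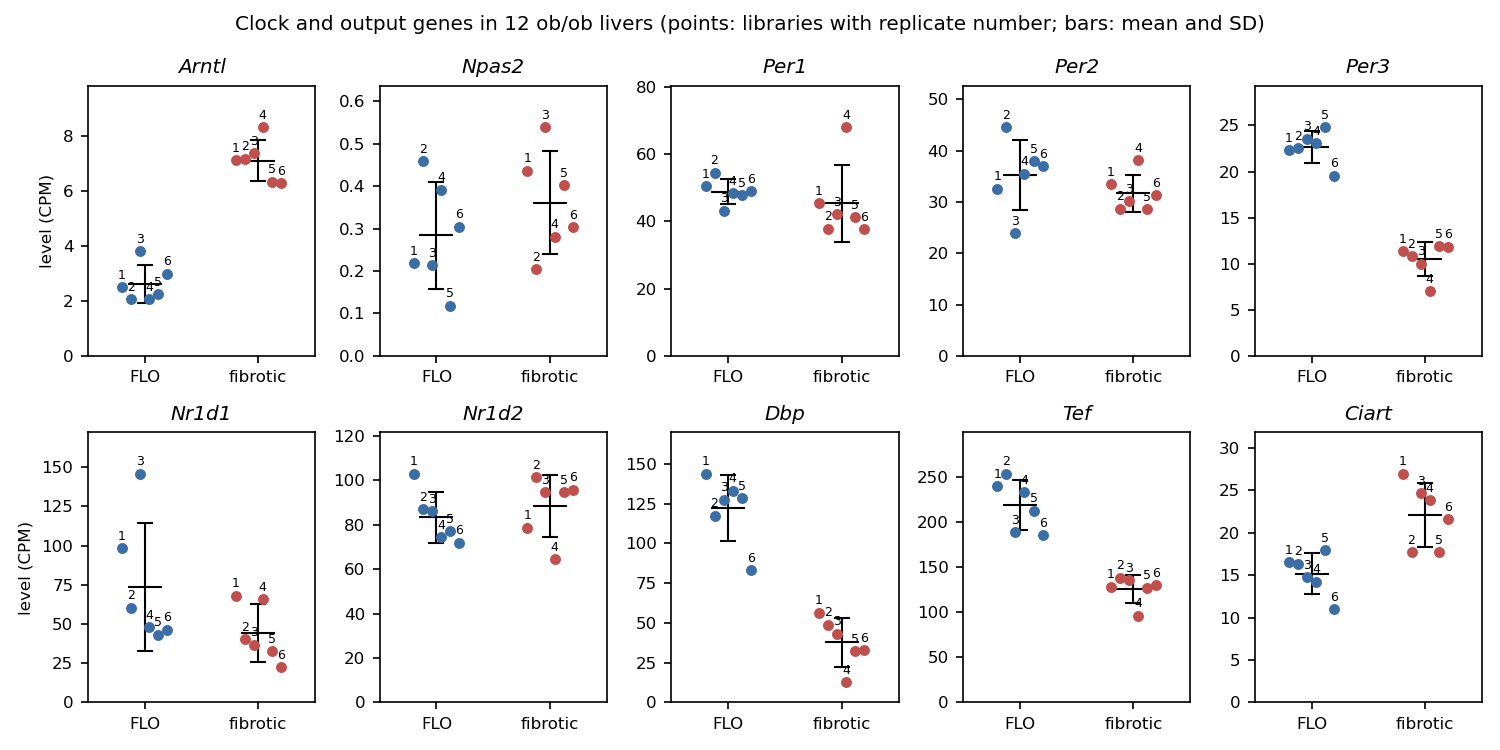
Level in CPM (vertical axes, each from 0) of each of the 10 clock and output genes in FLO and fibrotic livers. Points are libraries with their replicate number, bars the mean and SD. Arntl, Per3, Dbp and Tef have no overlap between the groups, whereas Per2, Nr1d2 and Npas2 overlap broadly and Ciart overlaps at its edge. In Per1 and Nr1d1 only fibrotic replicates 1 and 4 lie above the lowest FLO library.

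Arntl, at 7:113207465-113314126 on the plus strand (GRCm38, GENCODE M21), encodes the partner that the positive arm cannot do without. Its level ran from 6.28 to 8.33 CPM with a median of 7.16 in fibrotic livers, and from 2.06 to 3.81 CPM with a median of 2.38 in FLO livers. Even the lowest fibrotic library lay well above the highest FLO library, which was replicate 3. The means were 7.11 ± 0.755 and 2.62 ± 0.682 CPM (SD, n = 6 each), a log2 fold change of 1.43 (SE 0.16, edgeR FDR 3.73e-06). The exact permutation p was 0.00216, the smallest that 6 libraries against 6 can give. Leaving out each library in turn moved the log2 fold change between 1.37 and 1.57.

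Npas2, at 1:39193731-39363236 on the plus strand, can take the place of Clock as the partner of Arntl. Fibrotic libraries held 4 to 10 counts of it and FLO libraries 2 to 8, or 0.361 ± 0.121 and 0.284 ± 0.126 CPM (SD, n = 6 each). The groups overlapped, and the exact permutation p was 0.299. Without the low-count filter the log2 fold change was 0.33 (SE 0.47, edgeR FDR 0.610), so at this depth a difference in Npas2 was not detectable and the positive arm rests on Arntl.

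The Period genes, repressors that act with the cryptochromes, did not move as a family. Per3, at 4:151003652-151044665 on the minus strand, ran from 7.02 to 11.9 CPM (median 11.1) in fibrotic livers and from 19.6 to 24.8 CPM (median 22.8) in FLO livers. Every fibrotic library was below every FLO library, and fibrotic replicate 4 was the lowest. The means were 10.5 ± 1.84 and 22.7 ± 1.76 CPM (SD, n = 6 each), a log2 fold change of -1.11 (SE 0.12, edgeR FDR 1.94e-06). The exact permutation p was again the smallest possible, 0.00216.

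Per1, at 11:69095217-69109960 on the plus strand, also responds quickly to hormones and to feeding. It ran from 37.8 to 68.0 CPM (median 41.7) in fibrotic and from 43.2 to 54.5 CPM (median 48.7) in FLO livers, with a log2 fold change of -0.11 (SE 0.13, edgeR FDR 0.511). The highest of all 12 values was that of fibrotic replicate 4, while the other 5 fibrotic libraries lay below the FLO median. Without that library the log2 fold change was -0.25 (edgeR FDR 0.0128, exact permutation p = 0.00649), still inside the fold limit. Per2, at 1:91415982-91459324 on the minus strand, ran from 28.6 to 38.1 CPM (median 30.8) in fibrotic and from 23.9 to 44.6 CPM (median 36.2) in FLO livers. Here the fibrotic range lay within the FLO range, and the log2 fold change was -0.15 (SE 0.12, edgeR FDR 0.327). The lowest FLO value was that of replicate 3. Without it the log2 fold change was -0.24 (edgeR FDR 0.0522, exact permutation p = 0.0368). The members of the family thus had log2 fold changes of -0.11, -0.15 and -1.11.

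Nr1d1, at 11:98767932-98775333 on the minus strand, had the largest coefficients of variation of the tested members, 41.7% in fibrotic and 55.4% in FLO livers. In fibrotic livers that of Dbp was close (40.9%), and the SD of log2 CPM was larger for Dbp (0.763) than for Nr1d1 (0.613). Nr1d1 ran from 22.4 to 68.0 CPM (median 38.5) in fibrotic and from 43.1 to 146 CPM (median 54.2) in FLO livers. The high end of the FLO group was replicate 3 at 146 and replicate 1 at 98.2 CPM. The remaining FLO libraries lay below fibrotic replicates 1 and 4 and above the other fibrotic libraries. The log2 fold change was -0.73 (SE 0.36, edgeR FDR 0.104), and the exact permutation p was 0.113. Without FLO replicate 3 it was -0.42 (SE 0.30, edgeR FDR 0.266). Nr1d1 shares 263 exon bases with Thra on the opposite strand, a gene whose own log2 fold change was 0.07 (edgeR FDR 0.666).

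Nr1d2, at 14:18204054-18239127 on the minus strand, the paralogue of Nr1d1, ran from 64.6 to 101 CPM (median 94.6) in fibrotic and from 71.9 to 103 CPM (median 81.6) in FLO livers. The groups overlapped over almost their whole range, and the lowest library of all was fibrotic replicate 4. The log2 fold change was 0.08 (SE 0.12, edgeR FDR 0.561), between 0.04 and 0.17 when single libraries were left out. The exact permutation p was 0.545, and 0.0411 on plain library sizes without TMM.

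Ciart, at 3:95878503-95882251 on the minus strand, encodes a repressor of CLOCK and BMAL1 and carried the 3 E-boxes shown above. It ran from 17.7 to 27.0 CPM (median 22.7) in fibrotic and from 11.02 to 17.9 CPM (median 15.6) in FLO livers. The groups met at the edge, where FLO replicate 5 stood just above fibrotic replicates 2 and 5, and 6 of 6 fibrotic libraries were above the FLO median. The log2 fold change was 0.54 (SE 0.13, edgeR FDR 0.00265, exact permutation p = 0.00649). It fell under the fold limit without fibrotic replicate 1 (0.48) or without FLO replicate 6 (0.47), so the call stood close to its threshold.

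Among the output genes, Dbp, at 7:45705088-45710203 on the plus strand, had the log2 fold change of greatest size among the 9 tested members. It ran from 12.8 to 56.4 CPM (median 38.0) in fibrotic and from 83.3 to 144 CPM (median 128) in FLO livers. All fibrotic libraries were below all FLO libraries, fibrotic replicate 4 being lowest and FLO replicate 6 standing below the other FLO libraries. The means were 37.7 ± 15.4 and 122 ± 20.9 CPM (SD, n = 6 each), a log2 fold change of -1.70 (SE 0.27, edgeR FDR 0.000183, exact permutation p = 0.00216). Leaving out each library in turn gave -1.85 to -1.51. Dbp shares 539 of its 2993 exon bases with Sphk2, a sphingosine kinase gene on the opposite strand. Whether the counting used strand is not given in the sources used here. Sphk2 rose, from 49.5 to 86.9 CPM on average (log2 fold change 0.81, SE 0.10, edgeR FDR 6.68e-06), opposite to Dbp.

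Tef, at 15:81802421-81826863 on the plus strand, a close relative of Dbp with a flatter rhythm in liver, ran from 96.4 to 139 CPM (median 129) in fibrotic and from 186 to 254 CPM (median 223) in FLO livers. The groups did not overlap, and fibrotic replicate 4 was again the lowest. The means were 126 ± 15.2 and 219 ± 28.1 CPM (SD, n = 6 each), a log2 fold change of -0.80 (SE 0.11, edgeR FDR 1.67e-05, exact permutation p = 0.00216). Hlf, the third PAR bZIP gene, had a log2 fold change of -0.35 (edgeR FDR 0.0125) and was not called. All 3 PAR bZIP genes had their lower mean in fibrotic livers, with Dbp and Tef called.

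**Figure D2:**
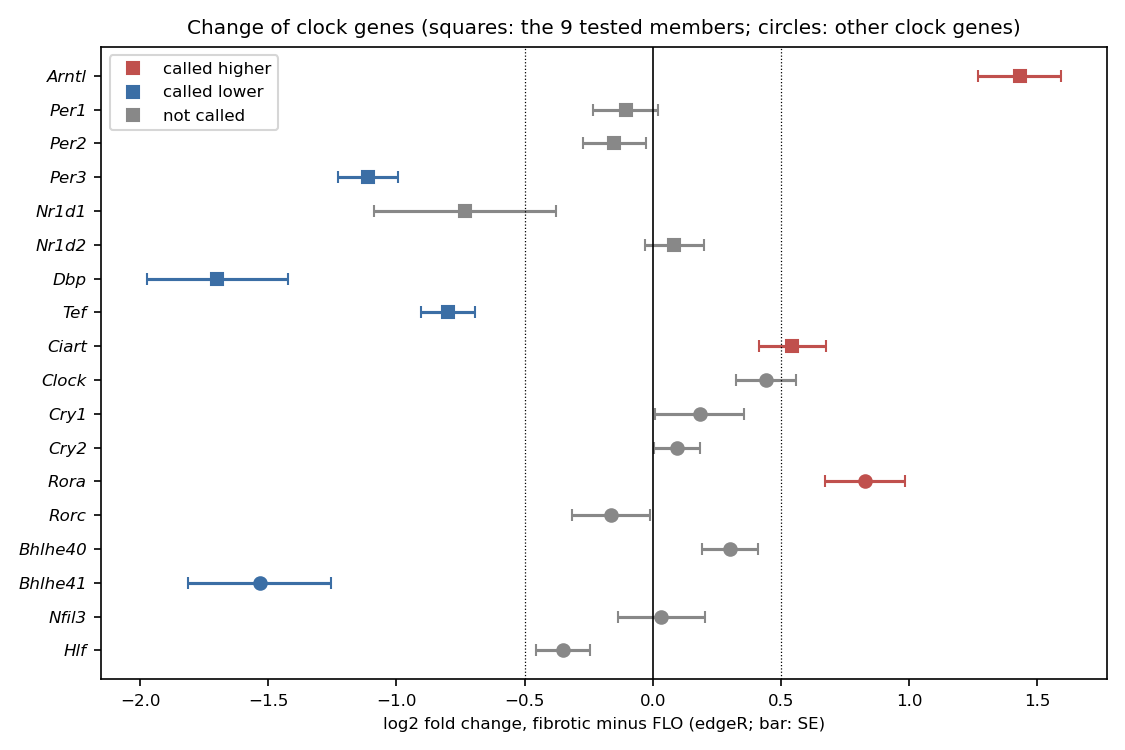
Log2 fold change, fibrotic minus FLO (horizontal axis), with its SE from edgeR, for the 9 tested members (squares) and 9 other clock genes (circles), coloured by call. Arntl at 1.43 and Dbp at -1.70 lie at opposite ends, and Per1, Per2 and Nr1d2 lie near 0.

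Levels were compared between genes per kilobase of the longest transcript. In FLO livers the output genes led. The mean level per kilobase was 66.6 ± 11.4 CPM for Dbp and 49.8 ± 6.38 for Tef (SD, n = 6 each). Nr1d1 (27.1), Nr1d2 (17.8), Per1 (10.5), Ciart (7.81), Per2 (6.04), Per3 (3.78), Arntl (0.655) and Npas2 (0.0672) followed. In fibrotic livers Tef had the highest mean, 28.7 ± 3.45 CPM per kilobase, though it exceeded that of Dbp by less than 1 SD of Dbp. Dbp (20.5 ± 8.39), Nr1d2 (18.9 ± 2.97) and Nr1d1 (16.3 ± 6.80) came next and lay within 1 SD of each other. Ciart (11.4 ± 1.96) and Per1 (9.72 ± 2.45) also overlapped, as did Arntl (1.78 ± 0.189) and Per3 (1.75 ± 0.306). Arntl and Per3 thus stood at almost the same level per kilobase in fibrotic livers, whereas in FLO livers the level of Per3 was far above that of Arntl. The order depended on the length used. Per kilobase of merged exons, Dbp and Tef still led in FLO livers (40.9 ± 7.00 and 27.9 ± 3.57 CPM), but in fibrotic livers Nr1d2 (16.3 ± 2.56), Tef (16.04 ± 1.93), Nr1d1 (14.4 ± 6.01) and Dbp (12.6 ± 5.15) overlapped.

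Ratios formed within a library do not depend on library size. They were chosen after the levels were seen and are given without a test. The log2 ratio of Arntl to Dbp counts was -2.27 ± 0.85 in fibrotic and -5.56 ± 0.50 in FLO libraries (SD, n = 6 each), a difference of 3.29 with no overlap. The log2 ratio of Ciart to Dbp, both of the second phase group, was -0.65 ± 0.81 and -3.01 ± 0.16, and that of Per1 to Per3 was 2.10 ± 0.59 and 1.11 ± 0.18, again without overlap. These ratios restate the levels that led to their choice. The log2 ratio of Nr1d1 to Nr1d2 overlapped between the groups (-1.08 ± 0.82 against -0.32 ± 0.59), as did that of Tef to Hlf (1.36 ± 0.17 against 1.81 ± 0.14).

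**Figure D3:**
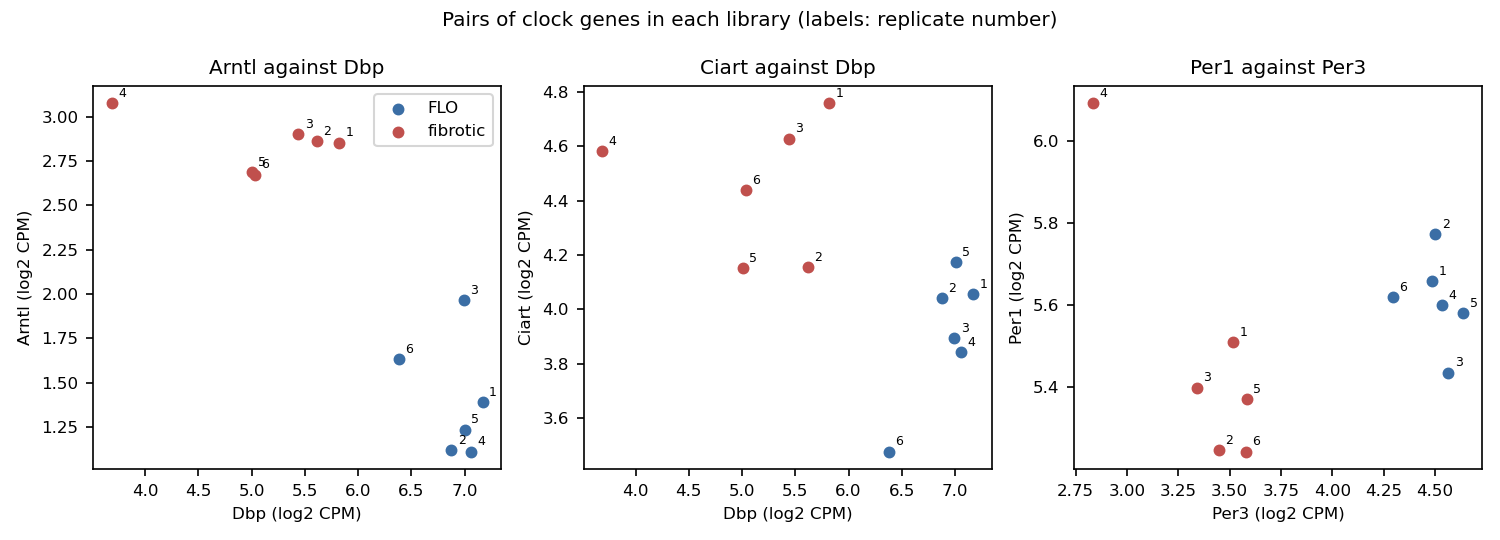
Log2 CPM of Arntl against Dbp, Ciart against Dbp and Per1 against Per3 in each library, coloured by group and marked with the replicate number. The groups are apart along Dbp and Per3, and fibrotic replicate 4 lies at the low end of both.

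Relations between genes were then examined within each group, where the difference between groups plays no part. The 10 members give 45 pairs, or 90 relations in the 2 groups, each with 6 libraries. Signs were counted by the grouping given above, positive within a group and negative across. That grouping is coarse, since in liver Nr1d1 and Dbp peak ahead of Per1 and Per2, so the counts describe signs and do not measure how well the clock ran. In FLO livers 31 of 45 pairs had the sign of the grouping, and in fibrotic livers 18 of 45. Pairs within a phase group were positive in 20 of 29 in FLO and 12 of 29 in fibrotic livers, and pairs across were negative in 11 of 16 and 6 of 16. Npas2, at 2 to 10 counts per library, enters 8 of those 16 pairs across. These counts describe genes measured in the same few libraries. The count was 20 in FLO livers and 20 in fibrotic livers without the 2 libraries farthest from the median of the first gene. Those libraries were chosen anew for each pair, and the difference between groups was not tested.

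No single relation passed correction. Of the 90 relations, 12 had an unadjusted exact permutation p under 0.05 for Pearson's r and 2 for Spearman's rho, and 0 had an adjusted p of 0.05 or less by either, the smallest adjusted p being 0.188 and 0.750. With both groups joined after removing group means (12 libraries, 45 pairs, 100000 permutations within groups), 8 pairs for r and 5 for rho had an unadjusted p under 0.05, and 0 passed after adjustment. With 6 libraries the smallest exact p for r is 0.00139.

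The pair with the smallest adjusted p over the residuals was Per1 and Per2, which share regulation by E-boxes and by hormone signals. Their r was 0.90 in fibrotic livers (n = 6, exact permutation p = 0.0306, adjusted 0.333), with rho 0.60 (exact p = 0.242, adjusted 0.80). In FLO livers their rho was 0.49 (exact permutation p = 0.356, adjusted 0.80), beside an r of 0.88 (exact p = 0.0556, adjusted 0.353). Without the 2 farthest libraries r was 0.87 in fibrotic livers and -0.87 in FLO livers, where the relation rested on those libraries. Without fibrotic replicate 4 alone the fibrotic r was 0.55, and leaving out single FLO libraries gave 0.63 to 0.94. Over the residuals of all 12 libraries r was 0.65 (permutation p = 0.00179, adjusted 0.0805) and rho 0.69 (permutation p = 0.0134, adjusted 0.365), and r was 0.78 without the 2 farthest.

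Arntl and Per3, of opposite phase groups, had an r of -0.90 in fibrotic livers (n = 6, exact permutation p = 0.00278, adjusted 0.188) and a rho of -0.94 (exact p = 0.0167, adjusted 0.750). It was -0.85 without the 2 farthest libraries and between -0.94 and -0.88 when single libraries were left out. The FLO livers gave a rho of -0.14 (exact permutation p = 0.803, adjusted 1) and an r of -0.23 (exact p = 0.658, adjusted 0.868), or -0.13 without the 2 farthest. The FLO r was -0.78 without FLO replicate 3 and 0.13 without FLO replicate 6, so it rested on single libraries in either direction.

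Dbp and Tef, related output genes, had an r of 0.92 in fibrotic livers (n = 6, exact permutation p = 0.0417, adjusted 0.333), a rho of 0.66 (exact p = 0.175, adjusted 0.80) and an r of 0.99 without the 2 farthest libraries. Without fibrotic replicate 4 alone, however, r was 0.39. For FLO livers rho was 0.43 (exact permutation p = 0.419, adjusted 0.839), and r was 0.55 (exact p = 0.250, adjusted 0.536) but -0.45 without the 2 farthest. Per3 and Dbp had similar values of r in both groups, 0.79 and 0.80 (n = 6 each, exact permutation p = 0.135 and 0.103, adjusted 0.400 and 0.385). Their rho was 0.09 and 0.26 (exact p = 0.919 and 0.658, adjusted 1 and 0.971). Without the 2 farthest libraries r was -0.78 and -0.23, and without fibrotic replicate 4 or FLO replicate 6 alone it was -0.50 and -0.19, so these relations rested on single libraries.

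**Figure D4:**
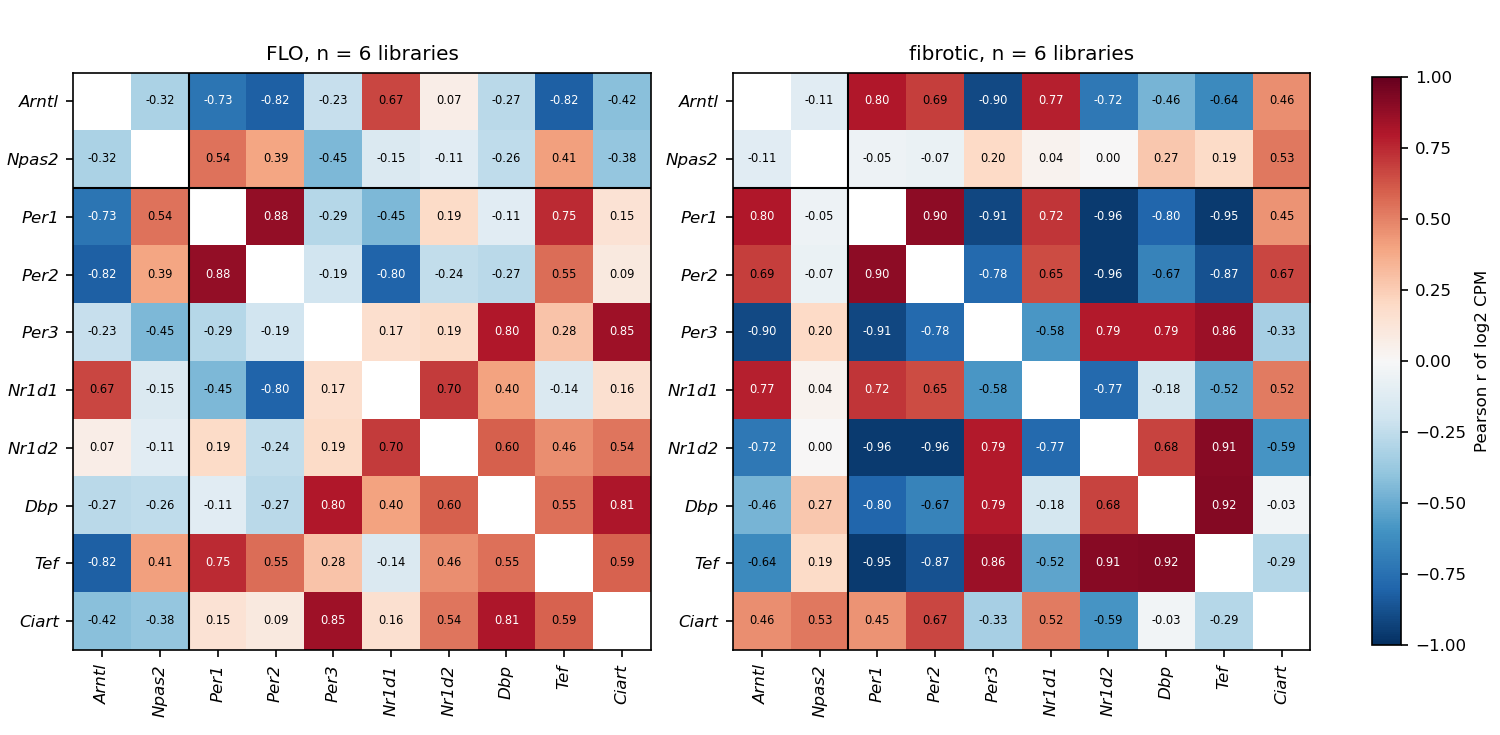
Pearson r of log2 CPM for every pair of the 10 members within FLO (n = 6 libraries) and fibrotic (n = 6 libraries) livers, on a colour scale from -1 to 1. Of 45 pairs, 23 have opposite signs in the 2 groups, and none passed correction.

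Between the groups, 23 of the 45 pairs had opposite signs of r. In 7 of these r reached 0.5 in size in both groups, and in 6 further pairs it did so with the same sign. These 6 were Per1 with Per2, Dbp with Tef, Per3 with Dbp, Nr1d2 with Dbp, Arntl with Tef and Arntl with Nr1d1. Without fibrotic replicate 4 the fibrotic r of Arntl and Tef went from -0.64 to 0.66. That of Nr1d2 and Dbp went from 0.68 to -0.50, and that of Per3 and Dbp also reversed. Per1 with Per2 (0.55), Dbp with Tef (0.39) and Arntl with Nr1d1 (0.66) kept their sign without it. Some strong values had the sign opposite to the grouping. Arntl and Nr1d1 had r of 0.77 in fibrotic and 0.67 in FLO livers, or 0.07 without FLO replicate 3. Per1 and Nr1d2 had r of -0.96 in fibrotic livers (exact permutation p = 0.00417, adjusted 0.188) and 0.19 in FLO livers. Single libraries weighed heavily. Arntl and Dbp, of opposite phase groups, had r of -0.46 in fibrotic livers, but 0.85 without fibrotic replicate 4. In FLO livers their r was -0.27, or -0.67 without FLO replicate 3 and 0.11 without FLO replicate 6. Among the 9 tested members, fibrotic replicate 4 was the highest fibrotic library in 3 (Arntl, Per1 and Per2) and the lowest in 4 (Per3, Nr1d2, Dbp and Tef). FLO replicate 6 was the lowest FLO library in 5 (Per3, Nr1d2, Dbp, Tef and Ciart).

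Among 10 other core clock and loop genes, 9 were tested, 1 was called higher, 1 lower and 7 were not called. Over all tested genes 29.9% were called. Their median log2 fold change was 0.09. Rora, a receptor that activates Arntl through ROR elements, rose from 41.2 ± 6.26 to 73.1 ± 20.4 CPM (SD, n = 6 each, log2 fold change 0.83, SE 0.16, edgeR FDR 0.000438) with no overlap between groups. Bhlhe41, a repressor that binds E-boxes, fell from 2.77 ± 0.779 to 0.952 ± 0.357 CPM (log2 fold change -1.53, SE 0.28, edgeR FDR 0.000285). Clock, the partner of Arntl, had a log2 fold change of 0.44 (edgeR FDR 0.00539) and stayed under the fold limit. Rorb was at 0 in every library.

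Of 12 genes whose proteins modify or degrade clock proteins, 3 were called higher and 1 lower, with a median log2 fold change of 0.14. That count is near the 29.9% called over all tested genes. Csnk1e, a casein kinase that phosphorylates PER proteins, rose (log2 fold change 0.87, SE 0.16, edgeR FDR 0.000336), and Fbxw11, a ubiquitin ligase subunit that recognises phosphorylated PER, rose (0.73, SE 0.13, edgeR FDR 0.000209). Ncor1, a corepressor of REV-ERB, rose by 0.50 (SE 0.11, edgeR FDR 0.00167), a call lost in 10 of 22 alternatives. Usp2, a deubiquitinase whose own transcript is rhythmic, fell (log2 fold change -0.996, SE 0.18, edgeR FDR 0.000351).

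Of 14 liver genes known to oscillate under the clock, 1 was called higher and 4 lower, with a median log2 fold change of -0.32. Here too the count is near the 29.9% of all tested genes. Nr1i3, the xenobiotic receptor CAR and a target of PAR bZIP factors, fell from 329 ± 72.9 to 28.5 ± 16.3 CPM (SD, n = 6 each, log2 fold change -3.53, SE 0.37, edgeR FDR 6.47e-06). Upp2, a uridine phosphorylase (-2.07, edgeR FDR 0.00011), and Gys2, the liver glycogen synthase (-1.30, edgeR FDR 2.25e-05), fell as well. Elovl3, a fatty acid elongase, rose by 1.28 on the log2 scale (SE 0.34, edgeR FDR 0.00674), a call lost in 10 of 22 alternatives.

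Genes that follow body temperature, heat shock or glucocorticoids were read beside the clock because these signals can shift it. Of 10 temperature and heat shock genes, 1 was called higher and 2 lower, against 29.9% of all tested genes called. Their median log2 fold change was 0.11. Cirbp, which encodes a cold-inducible RNA-binding protein, fell (-0.74, SE 0.17, edgeR FDR 0.00163), whereas Rbm3, which encodes another, had a log2 fold change of 0.34 (SE 0.10, edgeR FDR 0.0128) and was not called. Also lower was the small heat shock gene Hspb1 (log2 fold change -3.07, SE 0.35, edgeR FDR 1.08e-05). Hspa1a was called higher (0.85, SE 0.19, edgeR FDR 0.0017), and since it is nearly identical to Hspa1b, reads could be split between them. Of 7 glucocorticoid-responsive genes, Sgk1, a kinase, rose (2.28, SE 0.23, edgeR FDR 2.77e-06), and the other 6 were not called. The part of these signals in the clock result was not tested.

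Markers of other cell types were called higher mainly for cholangiocytes and macrophages. Over all tested genes, 15.9% were called higher and 14.0% lower. Of 10 hepatocyte markers 1 was called higher (Cps1, log2 fold change 0.73) and 4 lower, led by Apoa1 (-1.68), Pck1 (-1.08) and Serpina1c (-0.97), and their summed level ran from 56231 to 93462 CPM in fibrotic and from 84863 to 100318 CPM in FLO livers. Of 7 cholangiocyte markers 4 were called higher, led by Cldn4 (3.41), Epcam (1.35) and Sox9 (1.16), at summed levels of 97.4 to 300.2 against 59.7 to 102 CPM. Of 8 Kupffer cell and macrophage markers 6 were called higher, led by Marco (1.63), Adgre1 (0.81) and Csf1r (0.80), at 238 to 469 against 196 to 222 CPM. Of 7 stellate cell markers Lrat (0.72) was called higher (219 to 411 against 208 to 329 CPM) and the other 6 were not called. These included the collagen genes Col1a1 (log2 fold change -0.22, edgeR FDR 0.611) and Col3a1 (-0.03, edgeR FDR 0.925). The group name fibrotic is thus that of the sample labels, and Col1a1 and Col3a1 were not called higher under it. Other collagen genes were not examined here. Of 6 endothelial markers Kdr (-0.58) was called lower (119 to 157 against 171 to 193 CPM). The calls of Cps1, Lrat, Epcam and Marco were lost in 7 to 14 of 22 alternatives. Of 6 lymphocyte markers only 2 passed the low-count filter, with 0 called (7.55 to 12.7 against 6.18 to 10.9 CPM). No marker of these lists was at 0 in every library, and liver identity was plain from the hepatocyte markers in all 12. In bulk tissue, fewer cells of a type and less RNA per cell cannot be told apart, and the part of cell composition in the clock result was not tested.

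The genes most like Arntl and Dbp were ranked by Pearson r of residuals from the group means among 11160 genes in 12 libraries, as a description. Highest with Arntl were Gmpr2 (0.91), 1110004F10Rik (0.87), Dtx4 (0.85), Gm20634 (0.84) and Psmc5 (0.82), and lowest were Cep57l1 (-0.92), Rmc1 (-0.92), Macf1 (-0.90), Cep290 (-0.89) and Gpr137b (-0.88). Highest with Dbp were Zfp358 (0.97), Jmjd8 (0.97), Ngef (0.96), Sfxn5 (0.95) and Fmo1 (0.95), and lowest were Twf1 (-0.97), Tut1 (-0.97), Tapt1 (-0.96), Csnk1d (-0.94) and Pafah1b2 (-0.94). The 10 members were left out of the ranking, so only clock genes outside them could appear. No such core clock gene was among these 20 genes, whereas Csnk1d, a PER kinase, was. Fibrotic replicate 4 was the highest fibrotic library in Csnk1d (119 CPM) and the lowest in Dbp (12.8 CPM). Values of r without it were not computed for this ranking. All points share the same libraries and their depth.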

How the data were processed

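The values are unnormalized read counts for Ensembl genes, deposited by the authors as 1 table. The submitters' processing notes name STAR 2.7.3a, bcl2fastq and the mm10 build; the mouse annotation and the strand setting are not given in the sources used here. Symbols came from a name table matching 51745 of 56205 identifiers. Groups and replicate numbers were read from the sample titles, which call each library a mouse; the precision is limited by 6 libraries per group and 17815568 to 24814263 counts per library.

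Counts were tested in R 4.3.3 with edgeR 4.0.16 (robust quasi-likelihood test, TMM, filterByExpr, Benjamini-Hochberg over 13416 genes), and the fit was checked on simulated data. SE is the absolute log2 fold change divided by the square root of F. Log2 CPM used a prior count of 2. Member levels were also compared over every split of 12 libraries into 6 and 6 (exact permutation, two-sided). Correlations within groups used all 720 pairings, two-sided. Pairs of libraries within a group differed beyond sampling noise (chi-square per degree of freedom at least 10.3).

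The members and lists were chosen with earlier results of these data known. The text names all members, up to 3 called genes per direction of each other list (cell type markers are given as counts), and the 5 genes most and least like Arntl and Dbp. Clock, Hlf, Rbm3, Rorb, Thra, Sphk2, Hspa1b, Col1a1 and Col3a1 were named after their values were seen. Coordinates are GRCm38 (GENCODE M21), matched by identifier. Alternatives were RLE and upper quartile scaling, TMM with the 50 most counted genes set aside, the low-count filter dropped or replaced by a minimum of 10 counts in all samples, limma-voom (limma 3.58.1), DESeq2 1.42.0, a non-robust fit, the replicate number as a block, an FDR of 0.05, no fold limit, each library left out, Spearman's rho, and, added after seeing the data for levels, a prior count of 0.5 and plain library sizes. Leaving out FLO replicate 3 and fibrotic replicate 4 together and merged exons as gene length were also added then.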

Additional observations from a re-analysis of the deposited data

Results flagged for a closer look

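A library stood apart from the other 5 of its group where its gap to the nearest library, as a share of the group's range in log2 CPM, passed Dixon's critical value. Of 72 groups of 6 libraries examined, 9 did so, where chance gives about 1 in 20, or 3.6. Fibrotic replicate 4 accounted for 6 of the 9. It was highest in Per1 (ratio 0.686), Fbxw11 (0.640) and the macrophage receptor gene Marco (0.673), and lowest in Per3 (0.677), Tef (0.769) and the hepatocyte gene Serpina1c (0.639). FLO replicate 6 was lowest in Dbp (0.628) and in the E-box repressor gene Bhlhe41 (0.750), and FLO replicate 3 was lowest in Gys2 (0.651). Without fibrotic replicate 4 the calls of Per3, Dbp and Tef were unchanged, and without FLO replicate 6 those of Dbp and Bhlhe41 were unchanged.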

How the results depend on the processing

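No log2 fold change of the tested members or of the called list genes named reversed under the alternatives run; Npas2 had a value only without the low-count filter and in DESeq2, and the other genes named were not followed. Of the members, Arntl was called higher and Per3, Dbp and Tef were called lower under all 22 alternatives of the count test. The number of members called higher was 1 to 2 when single libraries were left out, Ciart being lost without fibrotic replicate 1 or FLO replicate 6, and the number called lower was 3 throughout. Over all genes, 3566 (at least 10 counts in every sample) to 4655 (DESeq2) were called. With the replicate number as a block, 3780 genes were called, 3694 of them among the 4012, with 2 members higher and 3 lower. Same-numbered libraries did not deviate together (r from -0.16 to 0.10, own number highest in 0 of 6). These values gave no sign of pairing by number, but they cannot exclude it. In FLO livers the pairs with the sign of their phase groups numbered 22 to 33 when single libraries were left out. The same range for fibrotic livers is not given here, so the contrast between groups is not shown for single libraries. Without the 2 farthest libraries they numbered 20 in FLO and 20 in fibrotic livers. Over residuals they numbered 23, and 31 without both FLO replicate 3 and fibrotic replicate 4. With 6 libraries per group and 2 to 10 counts of Npas2, depth and number limit what the correlations and Npas2 can show.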
